A study of Mus musculus with 8 samples.

Results

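Thrombospondins are secreted, calcium-binding glycoproteins that sit between cells and the extracellular matrix and are called matricellular because they signal to cells more than they build structure. Thrombospondin-1 and thrombospondin-2 assemble as trimers and carry the type 1 repeats that bind CD36 and oppose vessel growth, while thrombospondin-3, thrombospondin-4 and cartilage oligomeric matrix protein (COMP, also called thrombospondin-5) assemble as pentamers and lack those repeats. In the adult mammalian heart several of them are known to increase under load, and in mouse cardiomyocytes thrombospondin-4 also acts inside the cell, where it binds the endoplasmic reticulum (ER) stress factor ATF6. The 5 genes Thbs1, Thbs2, Thbs3, Thbs4 and Comp were matched from the gene identifiers of the deposited tables to mouse symbols and make up 5 of the 18656 genes listed there. All 5 passed the filter on low counts that left 15076 genes for testing.

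RNA was measured in hearts of C57BL/6 mice at postnatal day 16, in 2 libraries per genotype, each from the pooled hearts of littermates (3 per pool in the methods of the paper, 2 to 3 in the text of the series). The estrogen-related receptors ERRα and ERRγ are nuclear receptors that drive genes of mitochondrial metabolism. The 4 genotypes were αKOγKO (ERRα null in the whole body, floxed ERRγ removed by Myh6-Cre in cardiomyocytes), αKOγWT (ERRα null, ERRγ present), αHetγKO (1 copy of ERRα, ERRγ lost in the heart) and αHetγWT (1 copy of ERRα, ERRγ present). The question put to these libraries is what the loss of both receptors, or of either one, does to heart transcripts. The αHetγWT hearts used as the reference are themselves heterozygous for ERRα, and the Cre status of the γWT hearts is not given in the sources used here. The αKOγKO mice have a lethal cardiomyopathy, and the hearts sampled came from mice that had outlived the median life span the paper gives for them. In whole hearts, fewer cells of a type and less RNA per cell cannot be told apart.

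The libraries held between 28.2 and 36.8 M reads assigned to genes. Reads of Esrra, the ERRα gene, numbered 118 and 136 in αKOγKO, 119 and 84 in αKOγWT, 2978 and 3483 in αHetγKO and 2962 and 3165 in αHetγWT. Reads of Esrrg, the ERRγ gene, numbered 3012 and 3461 in αKOγKO, 1388 and 1193 in αKOγWT, 1174 and 1486 in αHetγKO and 1070 and 1055 in αHetγWT. They were thus not lower in the libraries labelled γKO, and higher in αKOγKO than in αHetγWT (1.18 ± 0.09, log2 fold change and SE, edgeR adjusted p = 2.3e-05). Counts summed over a gene cannot reveal that a floxed exon is gone, so the γKO labels are unchecked. The libraries differ in ways the genotypes do not give: Xist had 7142 reads in αKOγKO replicate 1 and 6 to 14 in the other 7, and immediate-early genes, which switch on within minutes of stimulation, were high in αKOγKO replicate 2. Cardiomyocyte markers (Myh6, Tnnt2, Actc1, Ryr2, Pln) were abundant in every library, with a summed level of 24124 and 28502 RPKM in αKOγKO and 29065 and 29224 RPKM in αHetγWT. RPKM is the read count per kilobase of gene length, scaled to the library total. On the deposited RPKM scale the median of all tested genes was 0.13 (log2) higher in αKOγKO than in αHetγWT, against 0.01 after TMM scaling, so RPKM values of αKOγKO hearts lie slightly high on that scale and the fold changes below are on the TMM scale.

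All 5 transcripts were detected in every library, and all were highest in αKOγKO hearts. Both αKOγKO libraries lay above the other 6 for each of the 5 genes, a pattern that 34.8% of all tested genes shared. The order of the 5 genes by level changed with it. In αKOγKO hearts Thbs4 led at 76.0 ± 6.5 RPKM, followed by Thbs1 at 23.9 ± 9.5, Thbs3 at 16.9 ± 1.6, Thbs2 at 14.4 ± 0.7 and Comp at 6.74 ± 1.5 RPKM (mean ± SD, n = 2 libraries). In αHetγWT hearts Thbs2 led at 9.37 ± 0.10 RPKM, followed by Thbs3 at 8.13 ± 1.11, Thbs1 at 4.58 ± 0.92, Comp at 3.72 ± 0.49 and Thbs4 at 2.86 ± 0.61 RPKM. Thbs4 was thus the least abundant member in the αHetγWT hearts and the most abundant in the αKOγKO hearts. Neighbours within about 1 SD of each other in these orders, such as Thbs3 and Thbs2 or Thbs1 and Thbs3 in αKOγKO and Thbs1 and Comp in αHetγWT, are not separated by 2 libraries. Thbs1 and Thbs4 were also picked by the study from these same libraries as genes for secreted proteins, so their rise in αKOγKO is not independent evidence of its direction.

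**Figure D1:**
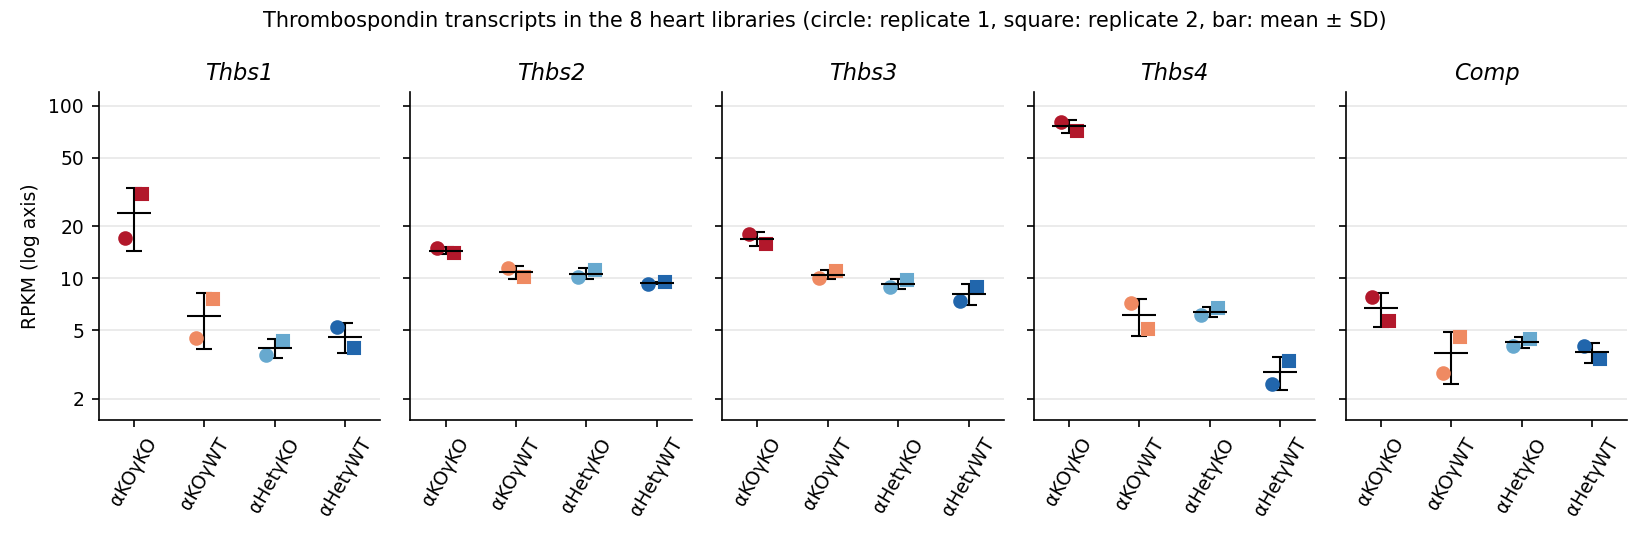
RPKM (log axis) of each thrombospondin gene in the 8 heart libraries, by genotype. Circles are replicate 1, squares replicate 2, and bars the mean ± SD of 2 libraries. The αKOγKO libraries sit above the other 6 in every panel, by the widest margin for Thbs4 (80.6 and 71.4 RPKM).

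The members lie on 5 different chromosomes. In build GRCm38.p6, the RefSeq annotation of mm10, Thbs1 spans chr2:118111876-118127133 on the plus strand and Thbs2 chr17:14665500-14694262 on the minus strand. Thbs3 spans chr3:89215180-89226841 (plus), Thbs4 chr13:92751586-92794818 (minus) and Comp chr8:70373548-70382066 (plus). The values are sums over each whole gene, with lengths used by the authors of 5802, 5922, 3205, 3202 and 2447 bases for Thbs1, Thbs2, Thbs3, Thbs4 and Comp. A noncoding gene, Gm29233, lies antisense within Thbs1, and an annotated transcript of Mtx1 overlaps Thbs3 on the opposite strand. The strand setting of the counting is not given in the sources used here, so reads of these partners cannot be told apart from those of Thbs1 and Thbs3.

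The RefSeq promoter table holds Thbs2, Thbs3 and Thbs4. Their 250 bases before the transcription start are shown because the 3 genes all rose in αKOγKO by very different amounts and their start regions differ in base composition. Capitals mark matches to the motifs searched on both strands. The stretches are chr17:14694263-14694512 (minus strand), chr3:89214930-89215179 (plus) and chr13:92794819-92795068 (minus), each written 5′ to 3′ along the gene.
Thbs2: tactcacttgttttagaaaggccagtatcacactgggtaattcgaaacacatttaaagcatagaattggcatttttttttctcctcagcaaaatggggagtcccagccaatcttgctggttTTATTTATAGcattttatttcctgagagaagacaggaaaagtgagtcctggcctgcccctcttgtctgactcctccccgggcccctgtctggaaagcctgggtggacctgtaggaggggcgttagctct
Thbs3: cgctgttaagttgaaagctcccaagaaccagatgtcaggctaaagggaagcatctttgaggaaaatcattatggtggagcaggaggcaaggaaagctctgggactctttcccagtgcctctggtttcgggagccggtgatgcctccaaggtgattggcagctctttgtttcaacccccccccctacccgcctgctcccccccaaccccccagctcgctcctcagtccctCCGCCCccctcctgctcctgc
Thbs4: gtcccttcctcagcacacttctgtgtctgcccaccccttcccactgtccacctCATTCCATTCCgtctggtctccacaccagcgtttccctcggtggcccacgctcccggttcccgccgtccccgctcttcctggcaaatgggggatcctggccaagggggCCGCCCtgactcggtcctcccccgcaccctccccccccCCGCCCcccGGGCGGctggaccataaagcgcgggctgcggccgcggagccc

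The Thbs4 stretch has a G and C content of 70.8% and 19 CpG dinucleotides, against 58.8% and 6 for Thbs3 and 46.8% and 3 for Thbs2. The medians over 32851 mouse promoter stretches of this length are 52.4% and 6. In Thbs4 the capitals are 2 copies, overlapping by 1 base, of the TEAD core GGAATG, read on the minus strand with first bases at positions -197 and -192 from the start, and 3 GC boxes (GGGCGG) at -89, -51 and -42. GGAATG occurs in 12.6% and GGGCGG in 32.7% of all promoter stretches. Thbs3 holds 1 GC box at -21. In Thbs2 the capitals are a match to the MEF2 motif at -129, found in 1.69% of promoter stretches, that overlaps TATAAA at -126 (12.4% of promoter stretches) on the minus strand. The extended ERR response element TNAAGGTCA, present in 1.14% of promoter stretches, has no match in these 3 windows, and neither do TGANTCA (AP-1, 6.75%), TGACGTG (ATF6, 1.65%), GTCTAGAC (SMAD, 0.167%), AGATAA (bound by GATA factors, 9.99%) or the CArG box (1.47%). A match or its absence in these windows is a description of letters only.

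In αKOγKO hearts all 5 thrombospondin transcripts were higher than in αHetγWT, and the size of the rise ran between 1.42-fold for Thbs2 and 24.3-fold for Thbs4. All 5 were called higher (edgeR quasi-likelihood test, Benjamini-Hochberg threshold 0.05), where 20.7% of the 15076 tested genes were called higher. The median log2 fold change of all tested genes was 0.01.

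Among the trimeric members, Thbs1, whose protein activates latent TGF-β and signals through CD47, was at 17.2 and 30.6 RPKM in αKOγKO and 5.23 and 3.93 RPKM in αHetγWT. Both αKOγKO libraries were high, but replicate 2 held more, and the gap between them was wider than that between the αHetγWT libraries. The log2 fold change was 2.26 ± 0.31 (SE, edgeR adjusted p = 0.000545), 279th of the 15076 tested genes from the highest. Thbs2, a trimer made by fibroblasts that limits vessel growth and helps order collagen fibrils, was at 14.9 and 14.0 RPKM in αKOγKO and 9.30 and 9.44 RPKM in αHetγWT. The groups were well apart and the libraries within them close. Its log2 fold change of 0.50 ± 0.09 (edgeR adjusted p = 0.00186) was the smallest of the family.

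Among the pentameric members, Thbs3, which is best known from the mouse skeleton, was at 18.0 and 15.8 RPKM in αKOγKO and 7.35 and 8.92 RPKM in αHetγWT. No αHetγWT library came near the αKOγKO values, and the log2 fold change was 0.93 ± 0.12 (edgeR adjusted p = 0.000475). Thbs4, a matrix protein of muscle and tendon, gave 9499 and 8387 reads in αKOγKO and 227 and 322 reads in αHetγWT, or 80.6 and 71.4 RPKM against 2.43 and 3.30 RPKM. The groups lay far apart and the αKOγKO replicates close together. The αHetγWT replicates differed by 0.44 (log2), above the 95th percentile of 0.39 over all compared genes in that genotype. Its log2 fold change of 4.60 ± 0.20 (edgeR adjusted p = 1.44e-06) placed it 38th. Comp, a cartilage and tendon protein that also occurs in vessel walls, was at 7.81 and 5.68 RPKM in αKOγKO and 4.07 and 3.38 RPKM in αHetγWT. The 2 groups did not overlap, but the 2 αKOγKO libraries lay further apart than the lower of them lay from the nearest αHetγWT library. The log2 fold change was 0.74 ± 0.24 (edgeR adjusted p = 0.0379).

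**Figure D2:**
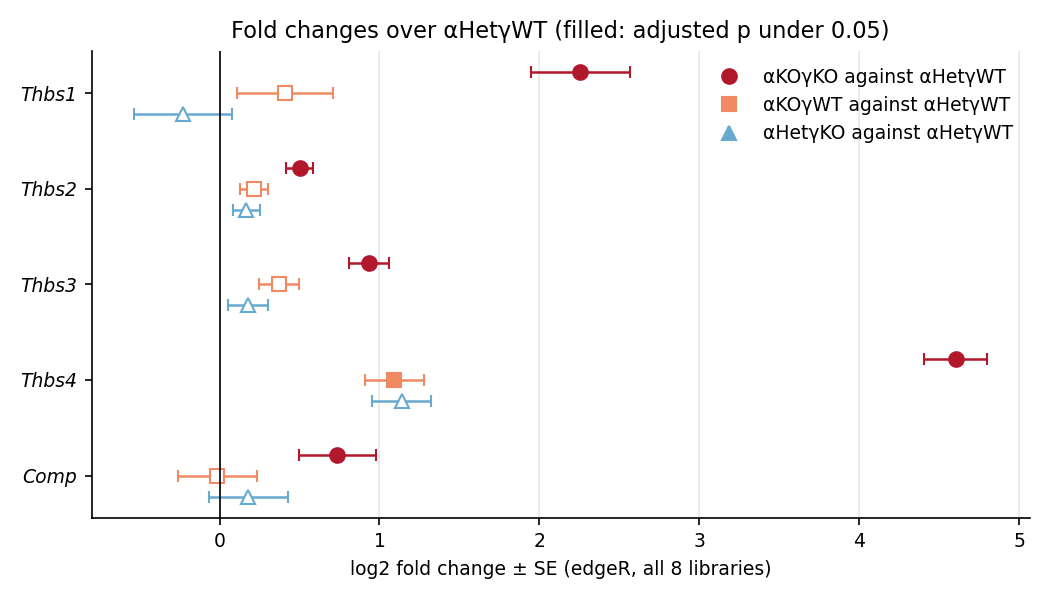
Log2 fold change ± SE of each thrombospondin gene over αHetγWT, from 1 edgeR fit to all 8 libraries. Red circles are αKOγKO, orange squares αKOγWT and blue triangles αHetγKO, and filled symbols passed the adjusted p threshold of 0.05. All 5 red circles are filled, and among the single losses only Thbs4 in αKOγWT is.

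The calls for Thbs1, Thbs2, Thbs3 and Thbs4 held under all 18 alternative settings, whereas Comp was lost when any of 5 libraries was left out. Without αKOγKO replicate 1 its log2 fold change was 0.48 (edgeR adjusted p = 0.157), without αHetγWT replicate 1 or 2 it was 0.87 (0.0901) or 0.62 (0.192), and without αHetγKO replicate 1 or 2 it stayed at 0.74 (0.0625 and 0.0627). The rise of the other 4 did not rest on 1 αKOγKO pool. Without replicate 1 Thbs1, Thbs2, Thbs3 and Thbs4 were at 2.61, 0.44, 0.82 and 4.50, and without replicate 2 at 1.79, 0.55, 1.03 and 4.69 (log2 fold changes).

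The genotypes labelled as lacking 1 receptor showed a single call in the family, Thbs4 in αKOγWT hearts. Thbs4 was at 7.15 and 5.07 RPKM in αKOγWT and at 6.08 and 6.67 RPKM in αHetγKO, against 2.43 and 3.30 RPKM in αHetγWT. All 4 single-loss libraries lay above both αHetγWT libraries, as they did for Thbs2 and for 11.9% of all tested genes. The log2 fold change over αHetγWT was 1.09 ± 0.19 in αKOγWT (edgeR adjusted p = 0.0313) and 1.14 ± 0.19 in αHetγKO (edgeR adjusted p = 0.238, unadjusted p = 0.000209 in the same fit). The 2 estimates are nearly equal. In αKOγWT 1 of the 5 members was called higher, where 0.743% of tested genes were. In αHetγKO none of the 5 members was called, where 0.00663% of tested genes, a single gene, were called in either direction and 748 had an unadjusted p under 0.05. The smooth muscle actin gene Acta2 lay higher in the same libraries, at 1090 and 1019 RPKM in αKOγWT and 1143 and 986 RPKM in αHetγKO against 505 and 474 RPKM in αHetγWT. Of 4 smooth muscle markers edgeR called 1 in αKOγWT (Acta2), where the DESeq2 Wald test called 2, Acta2 and Myh11. Myh11 lay lower there, at 19.2 and 18.4 RPKM against 23.8 and 23.7 RPKM in αHetγWT. In αHetγKO edgeR called 0 of the 4, 1 had an unadjusted p under 0.05, and the DESeq2 Wald test called Acta2. The part of smooth muscle cells in the Thbs4 level was not tested.

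The Thbs4 results after a single loss depend on the setting. In αKOγWT the call was lost in 7 of 18 alternatives, with adjusted p between 3.13e-08 and 0.327 over all of them, including both limma runs and the runs without αHetγWT replicate 1 (0.88) or 2 (1.34), αHetγKO replicate 1 or 2 (both 1.09) or αKOγWT replicate 1 (0.83, all log2 fold changes). In αHetγKO Thbs4 passed in 4 of 18 alternatives, with adjusted p of 5.75e-08 (DESeq2 Wald test), 0.0488 (limma with array weights), 0.00538 (edgeR on the 2 genotypes alone) and 0.0477 (edgeR without αKOγKO replicate 1).

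The other members showed no call after a single loss. Thbs1 was at 4.52 and 7.56 RPKM in αKOγWT and 3.59 and 4.30 RPKM in αHetγKO, values that overlap those of αHetγWT (5.23 and 3.93). Thbs2 was at 11.5 and 10.1 RPKM in αKOγWT and 10.1 and 11.2 RPKM in αHetγKO, above both αHetγWT libraries by small margins. Thbs3 was at 10.03 and 10.93 RPKM in αKOγWT and 8.86 and 9.76 RPKM in αHetγKO, of which 1 library fell within the αHetγWT range. Comp was at 2.80 and 4.53 RPKM in αKOγWT and 4.05 and 4.46 RPKM in αHetγKO, overlapping αHetγWT. Over αHetγWT, the log2 fold changes of Thbs1, Thbs2, Thbs3 and Comp were 0.41, 0.21, 0.37 and -0.01 in αKOγWT and -0.23, 0.17, 0.18 and 0.18 in αHetγKO, with SEs between 0.09 and 0.31. The 2 single losses also did not separate from each other. None of the 5 members was called between αKOγWT and αHetγKO, where 0.458% of tested genes were called in either direction and 1343 had an unadjusted p under 0.05. No member had an unadjusted p under 0.05 there, and the DESeq2 Wald test also called 0 of 5. The difference was -0.05 ± 0.18 for Thbs4 and 0.64 ± 0.30 for Thbs1 (log2, SE).

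Set against the single losses, αKOγKO hearts again held more of each transcript. Against αHetγKO, 4 of 5 members were called higher, where 18.7% of tested genes were: Thbs1 by 2.48 ± 0.31, Thbs2 by 0.33 ± 0.09, Thbs3 by 0.75 ± 0.12 and Thbs4 by 3.46 ± 0.18 (log2 fold change, SE). Comp, at 0.56 ± 0.24, did not pass (edgeR adjusted p = 0.101). Against αKOγWT, all 5 were called higher, where 16.6% of tested genes were. Thbs4 and Thbs1 differed by 3.51 ± 0.18 and 1.85 ± 0.30, Thbs3 by 0.56 ± 0.12, and both Comp (0.75 ± 0.24, edgeR adjusted p = 0.0413) and Thbs2 (0.29 ± 0.09, edgeR adjusted p = 0.0309) passed closely. Comp and Thbs2 lost that call in 8 and 7 alternatives, and Thbs3 lost it without αKOγWT replicate 1 (0.50, edgeR adjusted p = 0.059). Against αHetγKO, Thbs2 was lost without αHetγKO replicate 1 (0.28, edgeR adjusted p = 0.125), while Comp passed without either αKOγWT library or αKOγKO replicate 2 (edgeR adjusted p between 0.0265 and 0.0468). These comparisons share the αKOγKO libraries with each other and with the comparison above.

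Whether the 2 losses add up was tested as an interaction, how far the response to losing ERRγ in an αKO heart exceeds the response in an αHet heart. For Thbs4, losing ERRγ meant 3.51 ± 0.18 in αKO hearts and 1.14 ± 0.19 in αHet hearts (log2 fold change, SE), and the difference of 2.37 ± 0.25 passed (edgeR adjusted p = 0.000402) and did so in all 17 alternatives. For Thbs1, the effect was 1.85 ± 0.30 in αKO hearts and -0.23 ± 0.31 in αHet hearts, a difference of 2.07 ± 0.43 (edgeR adjusted p = 0.0121). The Thbs1 call was lost without αHetγWT replicate 1 (1.86, edgeR adjusted p = 0.0597) or αHetγKO replicate 1 (1.97, 0.066). Thus Thbs4 and Thbs1 rose in αKOγKO by more than the sum of the single effects on the log scale. For Thbs2, Thbs3 and Comp the difference was 0.12 ± 0.12, 0.38 ± 0.18 and 0.57 ± 0.35, and none of the 3 passed (edgeR adjusted p = 0.562, 0.18 and 0.306). So 2 of 5 members were called higher, where 6.77% of tested genes were.

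**Figure D3:**
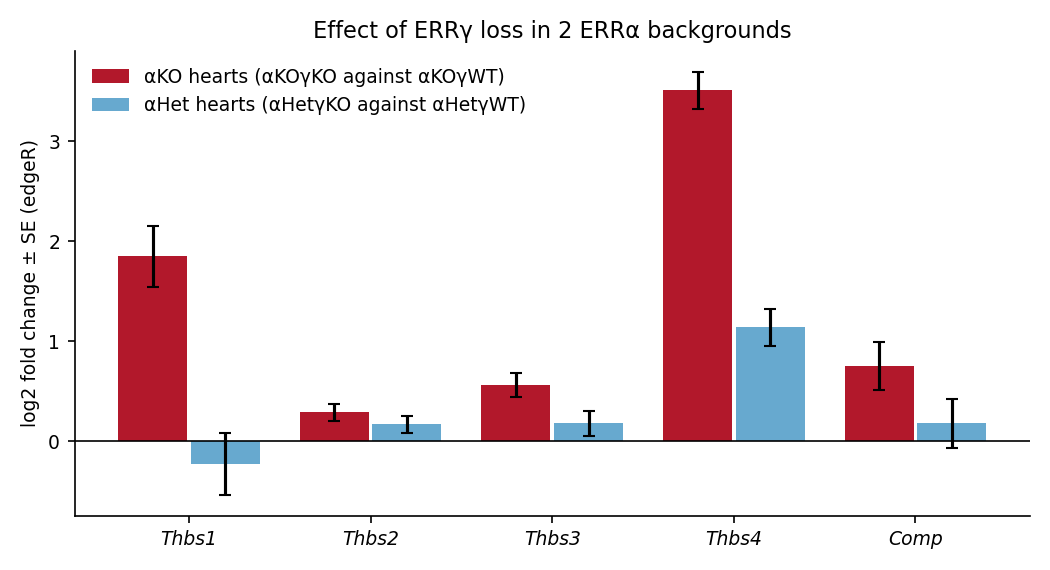
Effect of ERRγ loss on each thrombospondin gene in αKO hearts (red, αKOγKO against αKOγWT) and in αHet hearts (blue, αHetγKO against αHetγWT), as log2 fold change ± SE from edgeR. The red bar exceeds the blue by 2.37 for Thbs4 and by 2.07 for Thbs1, and by 0.57 or less for the other 3.

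Summed over the family, αKOγKO libraries held 138.6 and 137.4 RPKM, αKOγWT libraries 36.0 and 38.2, αHetγKO libraries 32.7 and 36.4, and αHetγWT libraries 28.4 and 29.0 RPKM. The sums of the αKOγKO libraries were close because opposite differences offset each other, with Thbs1 higher and Thbs4 lower in replicate 2. Thbs4 supplied 58.2% and 51.9% of that sum in αKOγKO, 19.9% and 13.3% in αKOγWT, 18.6% and 18.4% in αHetγKO and 8.58% and 11.4% in αHetγWT. The share of Thbs2 was 10.5 ± 0.4% in αKOγKO and 32.7 ± 0.1% in αHetγWT (SD, n = 2 libraries each), although its own level was higher in αKOγKO. Comp fell in share in the same way, to 4.88 ± 1.06% in αKOγKO against 13.0 ± 1.9% in αHetγWT. Thbs1 kept a similar share, 17.3 ± 7.0% in αKOγKO and 16.0 ± 3.4% in αHetγWT. Shares of a sum are linked to each other and were not tested.

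**Figure D4:**
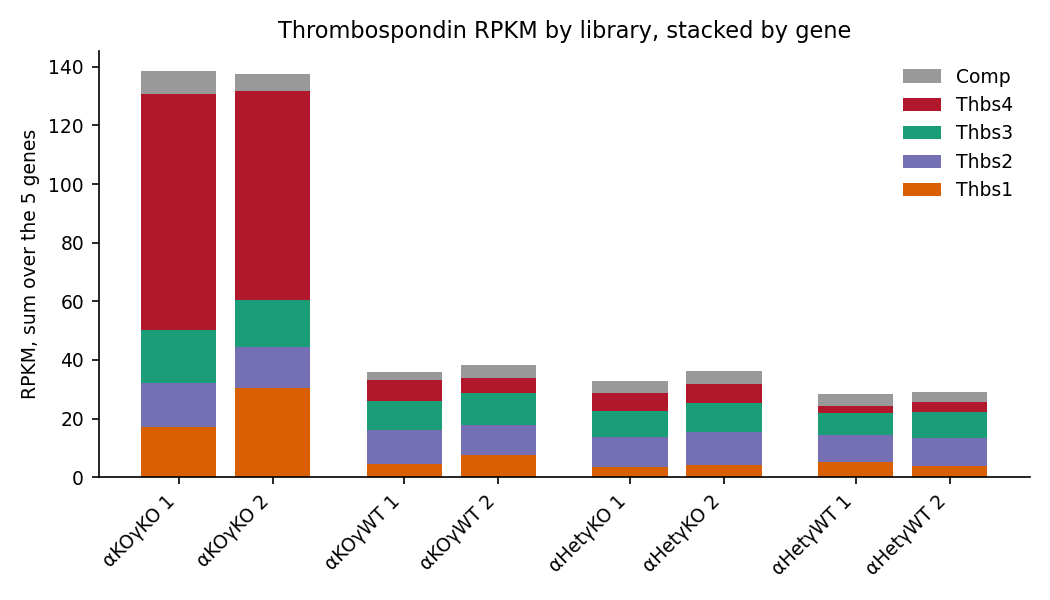
RPKM of the 5 thrombospondin genes in each of the 8 libraries, stacked. The αKOγKO bars reach 138.6 and 137.4 RPKM, of which Thbs4 (red) gives 58.2% and 51.9%, and the other 6 bars stay between 28.4 and 38.2 RPKM.

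The members also differed in how far replicates agreed. Thbs1 was 1.78-fold higher in replicate 2 than in replicate 1 of αKOγKO and 1.68-fold higher in replicate 2 than in replicate 1 of αKOγWT (0.83 and 0.74 on the log2 scale). Both exceed the 95th percentile of such differences over 11941 genes, which was 0.71 in αKOγKO and 0.49 in αKOγWT. Thbs1 was not alone in this. Comp (0.69) and Thbs4 (-0.50) also passed it in αKOγWT (log2, replicate 2 over replicate 1). In αHetγWT, where it was 0.39, Thbs4 (0.44) and Thbs1 (-0.41) did. The other 4 members were lower in replicate 2 of αKOγKO, by between 0.10 for Thbs2 and 0.46 for Comp on the log2 scale. Immediate-early genes, of which Thbs1 is counted as one in cultured fibroblasts, followed Thbs1 in the αKOγKO pair. Their summed level over 18 genes was 358 and 1474 RPKM in αKOγKO, 193 and 242 in αKOγWT, 199 and 231 in αHetγKO and 211 and 232 RPKM in αHetγWT. Of the 17 tested, 11 rose in αKOγKO over αHetγWT and none fell, where 20.7% of all tested genes rose and 21.5% fell. Among them were Ccn1, a matricellular protein (2.83 ± 0.35, log2 fold change), Ier3 (0.73 ± 0.10), Myc (1.19 ± 0.20) and Egr2, a zinc finger factor (4.09 ± 0.77). With replicate 1 of αKOγKO left out 17 of 17 were called higher, and with replicate 2 left out 9 were higher and 2 lower. Thbs1 without that replicate was still higher by 1.79, and the part of these genes in its level was not tested.

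**Figure D5:**
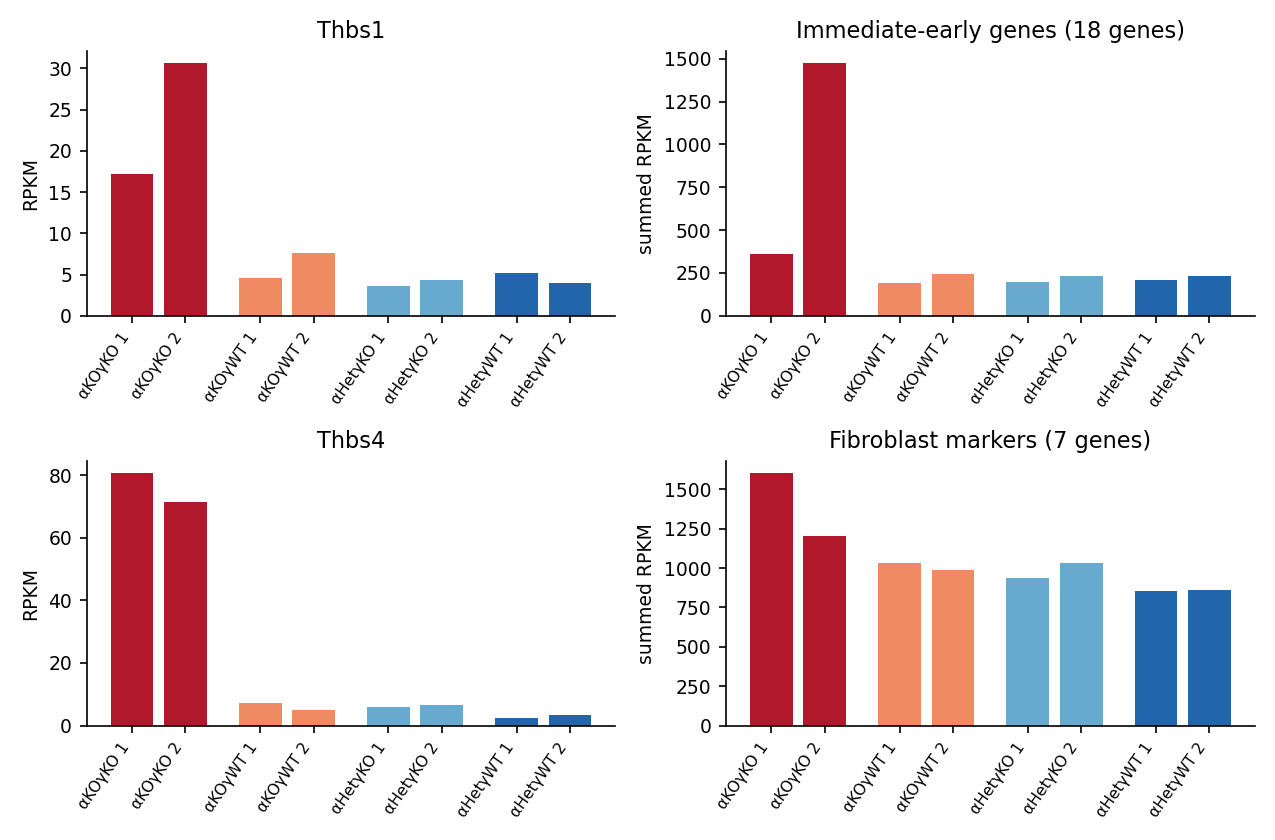
Thbs1 and Thbs4 (RPKM, left) beside the summed RPKM of 18 immediate-early genes and 7 fibroblast markers (right), 1 bar per library. Thbs1 and the immediate-early sum (1474 RPKM) are both highest in αKOγKO replicate 2, and Thbs4 and the fibroblast sum (1603 RPKM) in αKOγKO replicate 1. The Thbs4 difference within αKOγKO, -0.18 (log2, replicate 2 over replicate 1), was near the all-gene median size of 0.16.

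Markers of other heart cells moved with the genotype as well. Fibroblast markers (Pdgfra, Tcf21, Col1a1, Col1a2, Dpt, Dcn, Lum) summed to 1603 and 1206 RPKM in αKOγKO, 1032 and 988 in αKOγWT, 935 and 1033 in αHetγKO and 857 and 858 RPKM in αHetγWT. Over αHetγWT, 4 of the 7 rose in αKOγKO and none fell, where 20.7% of all tested genes rose and 21.5% fell, with a median log2 fold change of 0.36. Tcf21 (1.12 ± 0.13), Col1a1 (1.13 ± 0.16) and Col1a2 (1.10 ± 0.17) rose most, and Dpt rose by 0.36 ± 0.11. Pdgfra (0.32 ± 0.14), Lum (0.29 ± 0.14) and Dcn (0.17 ± 0.10) were not called. The values of Thbs2, Thbs3 and Comp were 0.50, 0.93 and 0.74. The median of the 7 fibroblast markers was 0.18 without αKOγKO replicate 1 and 0.53 without replicate 2. Tendon, valve and cartilage markers, the tissues in which Thbs4 and Comp are best known, summed to 38.2 and 42.4 RPKM in αKOγKO and 11.3 and 9.95 RPKM in αHetγWT, and 4 of 7 rose. Scx, a tendon transcription factor, was at 23.2 and 28.4 RPKM in αKOγKO and 3.20 and 2.94 RPKM in αHetγWT. The cartilage markers Col2a1 and Acan stayed under 0.6 RPKM in every library. Smooth muscle markers summed to 2749 and 2170 RPKM in αKOγKO, 1176 and 1119 in αKOγWT, 1246 and 1079 in αHetγKO and 597 and 568 RPKM in αHetγWT, and in αKOγKO 3 of 4 rose and Myh11 fell. Every single-loss library lay above both αHetγWT libraries in this sum, most of which is Acta2. Myh11 went the other way, at 19.2 and 18.4 RPKM in αKOγWT and 21.7 and 20.9 in αHetγKO against 23.8 and 23.7 RPKM in αHetγWT. Cnn1 and Tagln lay above both αHetγWT libraries in αHetγKO, but not in both αKOγWT libraries. Of 5 macrophage markers 2 rose, with sums of 124 and 69.1 RPKM in αKOγKO and 74.8 and 64.3 RPKM in αHetγWT. None of the 5 rose without αKOγKO replicate 1 and all 5 rose without replicate 2. Platelets carry Thbs1 protein, and platelet markers summed to 31.5 and 16.2 RPKM in αKOγKO and 16.0 and 14.0 RPKM in αHetγWT, with 1 of 5 called. Endothelial (4 of 5), pericyte (3 of 4) and cardiomyocyte (3 of 5) markers fell, with medians of -0.68, -0.56 and -0.44. The lung surfactant genes Sftpc and Sftpb were at most 0.265 RPKM and the thymus genes Cd3e, Rag1 and Ptcra at most 0.251 RPKM in any library, while the airway gene Scgb1a1 lay between 0.817 and 159 RPKM, both in αKOγWT. The part of these cell types in the thrombospondin levels was not tested.

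The genes that bind or process thrombospondins moved in a mixed way in αKOγKO over αHetγWT. Of 20 tested receptors and co-receptors 7 rose and 3 fell, with a median log2 fold change of 0.21. Those with the smallest adjusted p were Cacna2d1, the calcium channel subunit that binds thrombospondins in neurons (-1.05 ± 0.07), Cd36, the fatty acid carrier and receptor of the type 1 repeats (-0.75 ± 0.08), Sdc4, a syndecan (0.82 ± 0.11), and Itga6, an integrin chain (-0.69 ± 0.12). Cd47, the best known receptor of Thbs1, was at 19.6 and 19.6 RPKM in αKOγKO and 19.9 and 17.3 RPKM in αHetγWT (-0.04 ± 0.09), and is named here after its values were seen. Of 16 proteins that thrombospondins bind or activate 7 rose and 2 fell, with a median of 0.71. They include Vegfa, the growth factor of endothelium (-0.98 ± 0.09), Col1a1, a collagen chain (1.13 ± 0.16), and Tgfb2 (1.87 ± 0.27), whose latent form is a relative of the one Thbs1 activates. Of 8 proteases that cut thrombospondins or COMP 3 rose and 1 fell. Adamts1 (1.38 ± 0.20), Adamts4 (1.04 ± 0.31) and the membrane collagenase Mmp14 (0.87 ± 0.13) rose, and Adamts7, a protease known to cut COMP, fell by 2.21 on the log2 scale, to 2.58 and 3.84 RPKM in αKOγKO against 13.4 and 13.7 RPKM in αHetγWT. For each of these counts the background is 20.7% of all tested genes called higher and 21.5% called lower.

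Genes of the ATF6 branch and ER chaperones, listed because thrombospondin-4 binds ATF6, showed changes much smaller than that of Thbs4. Of 18 tested 6 rose and 1 fell, where 20.7% of all tested genes rose and 21.5% fell, with a median log2 fold change of 0.13. Atf6 itself was at 22.7 and 25.4 RPKM in αKOγKO and 16.3 and 16.6 RPKM in αHetγWT (0.42 ± 0.08), Dnajb11, a co-chaperone, rose by 0.48 ± 0.09 and Creld2, an ER stress gene, by 0.40 ± 0.10, whereas Herpud1, a component of ER-associated degradation, was at -1.15 ± 0.10. The median of the 18 was 0.03 without αKOγKO replicate 1 and 0.25 without replicate 2. Of 10 genes for the modification and secretion of thrombospondins and collagens 3 rose and none fell, among them P4hb, protein disulfide isomerase (1.09 ± 0.09), Sec23a, a coat protein of ER export (0.59 ± 0.08), and Dpy19l1, which transfers mannose to type 1 repeats (0.33 ± 0.10). The median log2 fold change of the 10 was 0.20, or 0.11 without αKOγKO replicate 1 and 0.34 without replicate 2.

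Of 17 other matricellular genes tested 11 rose and 2 fell, where 20.7% of all tested genes rose and 21.5% fell, and the other 4 were not called. The median of the 17 was 1.06 (log2 fold change). Ccn2, known as connective tissue growth factor, was at 749 and 651 RPKM in αKOγKO and 46.6 and 60.6 RPKM in αHetγWT (3.58 ± 0.18). Ccn1, which is also on the immediate-early list, rose by 2.83 ± 0.35, Smoc1 by 0.94 ± 0.12 and Ccn4 by 1.06 ± 0.14. Ccn1, Ccn2 and Vegfa also belong to the genes the study picked from these libraries. Of 20 tested proteins with a type 1 repeat outside the family 8 rose and 4 fell against the same background, with a median of 0.09, led by Thsd7a (2.15 ± 0.21), Spon1, or F-spondin (1.04 ± 0.11), Adamtsl2, a matrix protein (2.16 ± 0.32, also picked by the study), and Hmcn1 (0.63 ± 0.09). In αHetγKO and αKOγWT none of these receptor, ligand, protease, chaperone, secretion, matricellular or type 1 repeat genes passed against αHetγWT (edgeR, 108 genes tested). Of these, 9 and 19 had an unadjusted edgeR p under 0.05, and the DESeq2 Wald test called 1 (Thsd7a) and 2 (Thsd7a and Ccn4). Of all 15076 tested genes, edgeR called 1 higher in αHetγKO, and 112 higher and 74 lower in αKOγWT. Over all tested genes 748 and 2181 had an unadjusted edgeR p under 0.05.

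Profiles over the 8 libraries were compared as the mean absolute difference of log2(CPM + 0.5) values after each gene's own mean was taken off, over 11941 genes with a mean of at least 1 RPKM. The values were not scaled for the size of a gene's changes, so genes with changes of unlike size lie far apart even when their direction is the same. Within the family, Thbs2 and Thbs3 had the most similar profiles by this measure (0.18) and Thbs2 and Thbs4 the least (1.29), while Thbs1 stood 0.58 or more from every other member. The genes nearest to Thbs4 were Bex1 (0.30), Uts2b, which encodes urotensin-2B (0.34), Cilp, a matrix protein of cartilage and heart (0.36), Shisal1 (0.36) and Nppb, which encodes brain natriuretic peptide (0.36). Nppb was at 1952 and 1393 RPKM in αKOγKO, 99.0 and 206 in αKOγWT, 112 and 122 in αHetγKO and 74.4 and 79.0 RPKM in αHetγWT. The genes nearest to Thbs1 were Scx (0.21), Mlana (0.22), Bmp7, a bone morphogenetic protein (0.24), Irs2, an insulin receptor substrate (0.24), and Lad1 (0.26). Irs2 shares the gap within αKOγKO, with 9.39 and 26.5 RPKM there against 3.03 and 3.39 RPKM in αHetγWT. The genes nearest to Thbs2 were Crtap, needed for collagen prolyl hydroxylation (0.03), Ptgfrn (0.03), Limd1 (0.04), Vasn (0.04) and Sgce (0.04). Nearest to Thbs3 were Fgfr1, a fibroblast growth factor receptor (0.05), Pld3 (0.06), the creatine transporter gene Slc6a8 (0.06), Tcf19 (0.06) and Rhoc (0.06), and nearest to Comp were Bc1 (0.07), Marchf3 (0.07), Col4a6 (0.10), Dck (0.11) and Zfp52 (0.11). Likeness over 8 libraries of which 2 stand apart is given as a description only.

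Of the genes next to the members, Crtc1 beside Comp was called higher, and Serinc5 beside Thbs4 and Smoc2 beside Thbs2 lower. Of all tested genes, 20.7% were called higher and 21.5% lower in αKOγKO than in αHetγWT. Some of these neighbours are distant, with Rasgrp1 768999 bases from Thbs1 and Smoc2 260710 bases from Thbs2. Beside Thbs4, Serinc5 was at 7.06 and 8.06 RPKM in αKOγKO and 8.99 and 9.01 RPKM in αHetγWT (-0.38 ± 0.08, log2 fold change), and Mtx3 on the other side was at -0.30 ± 0.12 without a call. Mtx1, whose start lies 1273 bases from that of Thbs3 and runs the other way, was at 15.7 and 14.0 RPKM in αKOγKO and 17.2 and 15.2 RPKM in αHetγWT (-0.25 ± 0.11), and Muc1 on its other side was at 0.95 ± 0.51, both without a call. Smoc2, before Thbs2, was at -0.25 ± 0.08 (edgeR adjusted p = 0.0376). Crtc1, whose end lies 286 bases after Comp, rose by 0.50 ± 0.15 (edgeR adjusted p = 0.0267), and Upf1 on the other side was at -0.05 ± 0.11. Next to Thbs1, Rasgrp1 stayed under 0.2 RPKM in every library and had no call, and Fsip1, like Wdr27 beside Thbs2, was too low to be tested.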

How the data were processed

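Heart RNA libraries (Illumina TruSeq, sequenced from both ends) were made from pooled hearts, 2 per genotype. For each library the authors deposited uniquely assigned read counts, gene length, a coverage score and RPKM on build mm10, the build named in the submitters' processing notes. The aligner and the counting settings are not given in the sources used here. The RPKM values the authors deposited equal count divided by gene length and library total within 1e-06. The deposited coverage score is not defined in the file headers and was not used. Genes with 0 reads are not listed and were set to 0. Gene length differed between tables for 83 genes, none a member or on a gene list.

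Counts were tested with edgeR 4.0.16 in R 4.3.3: filterByExpr (minimum count 10, minimum total 15), TMM scaling, 1 mean per genotype over all 8 libraries (4 residual degrees of freedom), quasi-likelihood F tests and Benjamini-Hochberg adjustment at 0.05 over 15076 genes. The SE is the log2 fold change divided by the square root of F. There were 7 comparisons, the interaction included. An exact permutation test of 2 against 2 libraries cannot go below p = 0.333 and was not used. Each p measures the spread between pools, and intervals between individual animals cannot be had. Alternatives were DESeq2 1.42.0 size factors and Wald test, upper-quartile factors, limma 3.58.1 on log2(RPKM + 1) and log2(RPKM + 0.1), all genes with reads kept, a floor of 5 RPKM on the mean (which drops Comp), voom with array weights, a replicate block, the 2 genotypes alone, and leaving out each library. A genotype left with 1 library is assumed to vary like the others. The median replicate difference was larger in αKOγKO (0.16, log2) than in αKOγWT (0.11), αHetγKO (0.09) or αHetγWT (0.10). The shared spread can thus be too small for αKOγKO and too large for the other genotypes. With only αHetγKO and αHetγWT in the fit, edgeR called 63 genes higher and 42 lower, against 1 and 0 in the main fit. Counting the lists, or taking their medians, without either αKOγKO library was chosen after seeing the data. The fitting code was tested on simulated counts.

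The members, the 18 gene lists and the motifs were chosen with earlier results of these data known. Named genes are the members, the targeted genes, up to 4 genes per list with the smallest adjusted p in αKOγKO against αHetγWT, the annotated neighbours, and 5 genes per member with the nearest profile. A gene that this rule names is not reported here. Exceptions named after their values were seen are Cd47, the markers listed for cell types and Scgb1a1. Promoter stretches come from RefSeq (GRCm38.p6) and overlaps from GENCODE vM21. Thbs1 and Comp were not matched in the promoter table. Figures were drawn with matplotlib 3.10.9 in Python 3.11.15.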

Additional observations from a re-analysis of the deposited data

Results flagged for a closer look

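The effect of ERRγ loss on Thbs4 differed between ERRα backgrounds. It was higher in αKO than in αHet hearts by 2.37 on the log2 scale, by the test of that difference itself.

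The effect of ERRγ loss on Thbs1 also differed between the backgrounds, being higher in αKO than in αHet hearts by 2.07 on the log2 scale. Without αHetγWT replicate 1 or αHetγKO replicate 1 the call for Thbs1 was lost.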

How the results depend on the processing

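Of 618 alternative values for the fold changes of the 5 members over the 7 comparisons, 572 kept the direction and the side of the threshold, 31 lost the call, 7 gained one and 8 turned direction, all 8 with a library left out and none called in either setting. With a library left out, the αKOγWT over αHetγWT values lay between -0.0265 and 0.74 for Thbs1 and between -0.42 and 0.30 for Comp, and the αKOγWT over αHetγKO values between -0.0383 and 0.12 for Thbs2, between -0.30 and 0.17 for Thbs4 and between -0.60 and 0.12 for Comp (log2). With the DESeq2 Wald test, with array weights and with the 2 genotypes alone, 1 member (Thbs4) was called in αHetγKO against αHetγWT, and 0 to 1 with a library left out. In αKOγWT against αHetγWT, 0 members were called with limma at either pseudocount, and 0 to 1 with a library left out. In αKOγKO against αKOγWT, 3 were called with the 2 genotypes alone and 3 to 5 with a library left out. For the interaction the range was 1 to 2. The fold change of Comp in αKOγKO over αHetγWT lay between 0.48 and 0.95 with a library left out. Same-numbered libraries did not deviate together (correlations between -0.183 and 0.088), so no pairing by number was seen. With 2 libraries per genotype these correlations cannot show whether same-numbered pools shared a litter or a preparation. With a replicate block the αKOγKO against αHetγWT count stayed at 5, and the Comp call against αKOγWT was lost (0.75, edgeR adjusted p = 0.0517). No other count of members moved with the block. On the RPKM scale with limma at a pseudocount of 1, 4168 genes were higher and 2424 lower in αKOγKO than in αHetγWT, against 3127 and 3237 with edgeR (both the scale and the test differ). Without αHetγWT replicate 1 the counts were 1895 and 2309. The members had 215 to 9499 reads in each library, and each genotype 2 pools.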
